A study of Mus musculus with 14 samples.

Results

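The 10 genes described here encode the enzymes that hydroxylate and crosslink collagen and the chaperone that folds it. They were picked by gene symbol from the 54524 genes of the count table, with earlier results of these data known, and all 10 passed the filter on low counts that left 26626 genes for testing. They are the lysyl oxidases Lox, Loxl1, Loxl2 and Loxl3, the lysyl hydroxylases Plod1, Plod2 and Plod3, the catalytic subunits P4ha1 and P4ha2 of prolyl 4-hydroxylase, and Serpinh1, which encodes the collagen chaperone HSP47. Their expression was measured by RNA sequencing in liver sinusoidal endothelial cells (LSECs), the fenestrated cells that line the capillaries of the liver. Untreated male Balb/c mice (healthy, n = 4) were compared with male Balb/c mice sacrificed 1 day (n = 2), 3 days (n = 4) or 7 days (n = 4) after a single intraperitoneal dose of carbon tetrachloride (CCl4), a hepatocyte toxin. The paper states that 2 further day 1 samples were left out because their RNA quality was too low. CCl4 was given at 0.5 µl per g of body weight in mineral oil, the labels put all mice at 10 to 12 weeks of age, and the healthy mice received no injection, so that the oil and the injection go together with CCl4 in every comparison. By the labels LSECs were sorted as CD32+ F4/80- cells without UV autofluorescence or propidium iodide staining, and RNA was taken without culture. The methods of the study differ from the labels in 2 points, since they add a CD45- gate and give a somewhat older age range.

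Collagen chains are modified in the endoplasmic reticulum before they are secreted. Prolyl 4-hydroxylase makes the hydroxyproline that keeps the triple helix stable, the lysyl hydroxylases make hydroxylysine, and HSP47 holds the folded helix on its way to the Golgi. Outside the cell the lysyl oxidases, copper-dependent amine oxidases, turn lysine and hydroxylysine into aldehydes that join neighbouring chains, and in the fibrotic liver these crosslinks make the scar stiff and slow to degrade. Hepatic stellate cells and the myofibroblasts they become are the best known source of fibrillar collagen in the injured liver, while LSECs lie on a thin matrix that contains collagen IV.

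The lysyl oxidases share a histidine-rich stretch that holds the copper ion. Its coding sequence is shown for 3 members (GRCm38, GENCODE vM21 transcripts, 5′ to 3′ on the coding strand). They were shown because Loxl1 and Loxl2 rose at days 3 and 7 after CCl4 while Loxl3 did not pass the test. The genes were not tested against each other. Histidine codons are in capitals.
Loxl1: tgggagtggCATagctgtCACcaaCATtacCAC
Loxl2: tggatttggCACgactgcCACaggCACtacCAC
Loxl3: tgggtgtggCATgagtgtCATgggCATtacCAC
The stretch is coding in each gene and is interrupted by an intron. In Loxl1 it runs over exons 3 and 4 at chr9:58293720-58294381 on the minus strand. In Loxl2 it runs over exons 10 and 11 at chr14:69682316-69689037 on the plus strand, and in Loxl3 over exons 10 and 11 at chr6:83049995-83050125 on the plus strand. Loxl1 and Loxl2 are identical at 22 of its 33 bases, and Loxl3 is identical to each of them at 25. The histidine codons are written as CAT or CAC, and the choice between them differs in part among the 3 genes.

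Healthy LSECs expressed these genes at very different levels. Per kb of merged exons, which allows genes to be compared, Plod1 had the highest level of the 10 at 42.8 ± 4.92 CPM per kb (SD, n = 4; CPM, read counts scaled to the TMM-normalised library size) and P4ha1 followed at 32.1 ± 5.66. Among all tested genes these levels were at percentiles 94.8 and 93.2. Serpinh1 (14.3 ± 7.09), Plod3 (12.7 ± 1.23) and Loxl3 (9.37 ± 1.29) came next. Loxl2 (4.41 ± 1.03) and P4ha2 (3.15 ± 1.06) were lower. Loxl1 (0.205 ± 0.0384), Plod2 (0.165 ± 0.0434) and Lox (0.0592 ± 0.0269 CPM per kb) were close to silent, at percentiles 31.5, 29.0 and 18.5. Between neighbours in this order the healthy ranges overlapped for Plod1 and P4ha1, for Serpinh1 and Plod3, for Loxl2 and P4ha2, and for Loxl1 and Plod2, and were apart for the others. The healthy libraries held 9 to 32 reads of Lox each and 49 to 86 of Loxl1.

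Libraries differed in ways that bear on these genes. Library totals ran from 46401496 to 103912264 counted reads. The summed CPM of 13 LSEC and endothelial markers was 18901 to 22420 in healthy libraries and 11159 to 16766 after CCl4, so the labelled cell type was abundant in all 14 libraries. The summed CPM of 12 markers of stellate cells and myofibroblasts, none of them a collagen or one of the 10 genes, lay between 36.3 and 62.9 in healthy libraries. It was 37.9 and 54.2 at day 1, ranged from 171 to 413 at day 3, and from 57.1 to 676 at day 7. Of these 12 genes 0 changed at day 1 (edgeR, adjusted p under 0.05; 1 at an unadjusted p under 0.05), 8 rose at day 3 and 8 at day 7, and of all 12, Ngfr alone was at 0 reads in any library (healthy 1 and 2 and day 1 library 1). Day 3 libraries 1 and 2 held 34678 and 34768 detected genes against 28203 and 22986 in libraries 3 and 4, and monocyte and neutrophil markers at a summed 4079 and 2189 CPM against 98.5 and 65.5. The same 7 monocyte and neutrophil markers summed to 27.4 to 183 CPM in healthy libraries and to 2806 and 6759 at day 1, where 4 of them rose, and to 166 to 275 at day 7, where 0 rose in edgeR (2 at an unadjusted p under 0.05). The 9 macrophage markers summed to 706 to 2784 CPM in healthy libraries and to 2509 and 3674 in the day 1 libraries. They summed to 2056 to 10364 CPM at day 3 and 5642 to 10590 at day 7. Of the 9, 2 rose at each of the later days. Their median log2 fold change was 0.16 at day 1, 0.18 at day 3 and -0.03 at day 7. Over all tested genes the median was -0.03, 0.18 and 0.02. The 5 cholangiocyte markers summed to 79.2 to 193 CPM in healthy libraries and to 229 and 301 in the day 1 libraries. They summed to 321 to 1178 CPM at day 3 and 598 to 5255 at day 7. Of the 5, 1 rose at each of the later days. Spp1 alone averaged 137 CPM in healthy and 256 CPM in day 1 libraries. Krt19, Krt7, Epcam and Sox9 averaged 1.05 to 5.93 CPM each in these groups. The median log2 fold change of the 5 was -0.49 at day 1, 0.13 at day 3 and 0.72 at day 7. The 7 portal fibroblast and mesothelial markers summed to 12.8 to 21.8 CPM in healthy libraries and to 5.27 and 5.74 at day 1. They summed to 11.9 to 26.0 CPM at day 3 and 10.0 to 94.2 at day 7, and 0 of the 7 passed the edgeR test on any day. Over all tested genes 4.06% changed at day 1, 4.62% rose at day 3 and 2.19% rose at day 7. Healthy library 4 held hepatocyte markers at 9781 CPM against 236 to 455 in the other healthy libraries, and the day 3 libraries held 1014 to 3428 and the day 7 libraries 941 to 7433. The part of these differences in the results below was not tested, beyond leaving out the libraries named. In sorted bulk RNA, more cells of a type and more RNA per cell cannot be told apart.

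**Figure D1:**
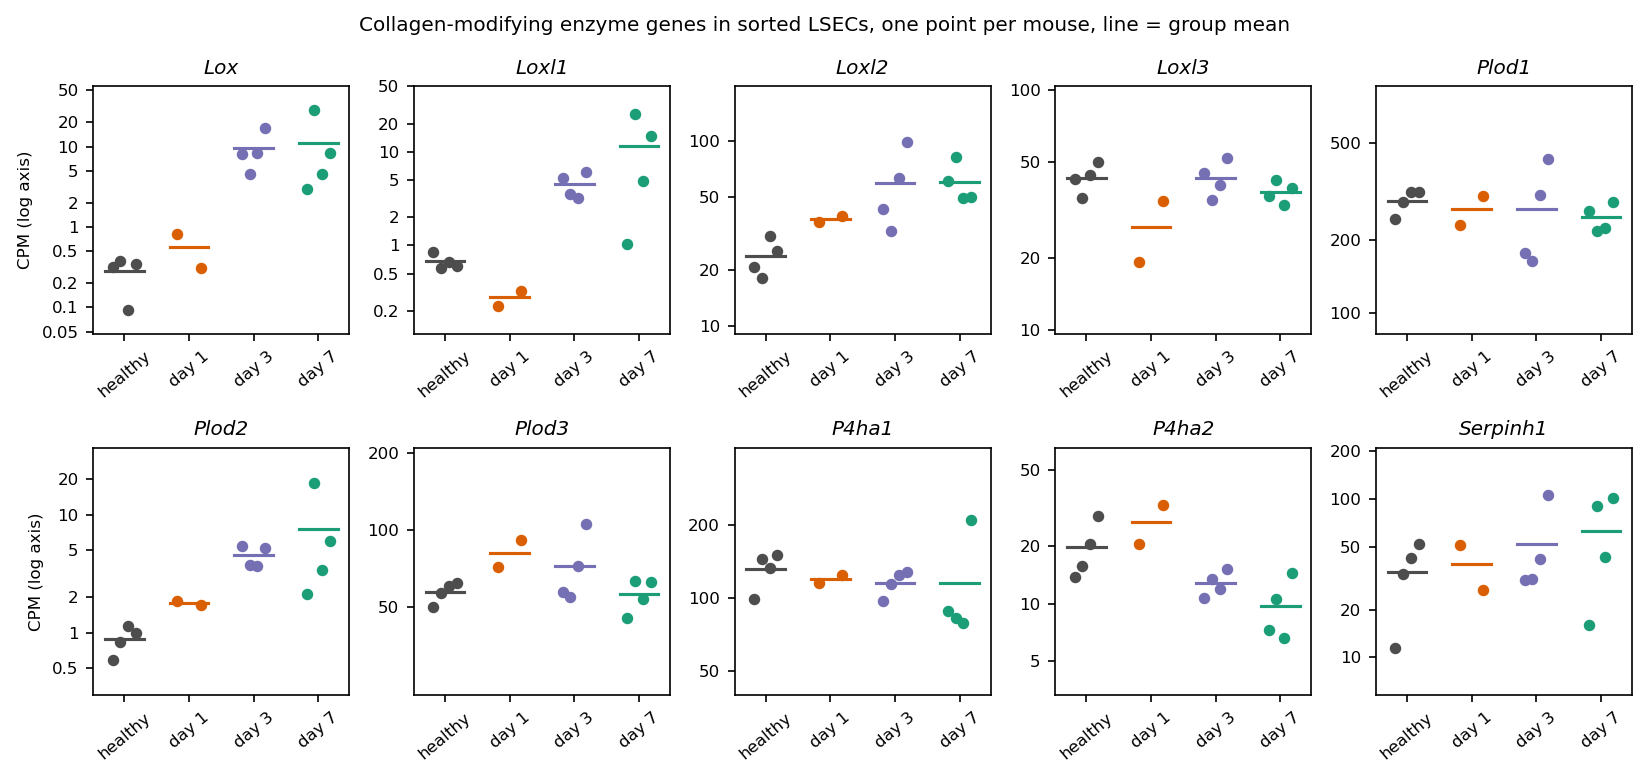
CPM (log axis) of each of the 10 genes in each mouse, with 1 point per mouse and a line at the group mean, for healthy LSECs and days 1, 3 and 7 after CCl4. Lox, Loxl1, Loxl2 and Plod2 lie above every healthy library in all 4 day 3 and all 4 day 7 libraries, as do 7.53% and 8.72% of all tested genes. Loxl3, Plod1, Plod3, P4ha1, P4ha2 and Serpinh1 overlap with the healthy libraries on both days.

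The comparison of each day with healthy LSECs asks how the enzymes follow the course of acute injury. At day 1, 0 of the 10 genes changed (edgeR quasi-likelihood test, Benjamini-Hochberg adjusted p under 0.05), where 4.06% of all tested genes did. Of the 10, 1 (Loxl3) had an unadjusted p under 0.05, as did 17.9% of all genes. DESeq2 called 0 of the 10 and 2837 of all 26626 genes. Limma voom called 2, Loxl3 and Plod3, and 4308 of all genes. At day 3, 4 of the 10 rose and 0 fell, where 7.19% of all genes changed and 4.62% rose. At day 7 the same 4 genes were higher, where 3.18% of all genes changed and 2.19% rose. These were Lox, Loxl1, Loxl2 and Plod2. The 3 comparisons share the healthy mice. The median log2 fold change of the 10 genes was 0.30 at day 1, 0.46 at day 3 and 0.41 at day 7, beside -0.03, 0.18 and 0.02 over all tested genes.

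**Figure D2:**
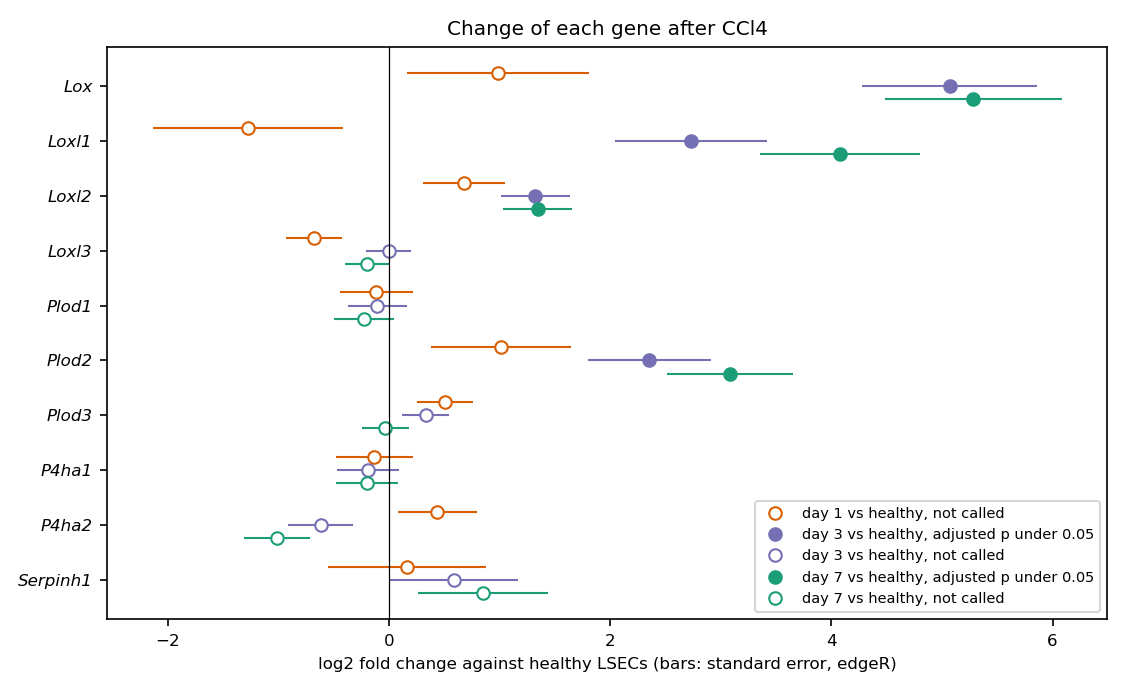
Log2 fold change of each gene against healthy LSECs at days 1, 3 and 7 (bars, standard error from edgeR); filled points passed an adjusted p of 0.05. Filled points stand for Lox, Loxl1, Loxl2 and Plod2 at days 3 and 7, from 1.32 for Loxl2 to 5.28 for Lox, and all points of day 1 are open.

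Lox, the founding lysyl oxidase, had the widest change. Its gene lies at chr18:52516067-52529867 on the minus strand (GRCm38). Healthy LSECs held 0.319, 0.376, 0.0936 and 0.343 CPM, and the day 1 libraries 0.813 and 0.308. At day 3 the libraries held 8.14, 4.56, 8.31 and 17.1 CPM, and at day 7 they held 2.98, 28.4, 4.54 and 8.28. Every day 3 and day 7 library was above every healthy library, and every day 3 library was above both day 1 libraries. Among all tested genes, 7.53% were separated upwards from healthy LSECs at day 3 and 8.72% at day 7, and 11.4% from day 1 to day 3. Lox rose by 5.07 on the log2 scale at day 3 (SE 0.79, edgeR adjusted p = 0.00317), a 33.6-fold change, and by 5.28 at day 7 (SE 0.80, adjusted p = 0.00600). At day 1 the difference was 0.98 (SE 0.82, adjusted p = 0.614), with a 95% interval of -0.79 to 2.75. The calls at days 3 and 7 were kept in 23 of 23 other settings each, among them leaving out each library in turn. Without day 7 library 2 the log2 fold change at day 7 was 4.21.

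Loxl1, which acts on elastin fibres, went the same way after day 1. Its gene lies at chr9:58287738-58313186 on the minus strand. The healthy libraries held 0.858, 0.576, 0.666 and 0.607 CPM and the day 1 libraries 0.227 and 0.330, below all of them, as for 17.9% of all tested genes. The day 1 difference of -1.27 did not pass (SE 0.86, edgeR adjusted p = 0.501). The day 3 libraries held 5.21, 3.56, 3.19 and 6.04 CPM and the day 7 libraries 1.03, 25.2, 4.85 and 14.7. All 8 were above the healthy libraries (7.53% of all tested genes at day 3 and 8.72% at day 7), and the day 7 mice spanned a 24.5-fold range. Loxl1 rose by 2.73 on the log2 scale at day 3 (SE 0.69, adjusted p = 0.0295) and by 4.08 at day 7 (SE 0.73, adjusted p = 0.0118). The day 3 call was lost without any healthy library (adjusted p 0.0694 without library 1, 0.0830 without 2, 0.0784 without 3 and 0.0776 without 4), without either day 1 library (0.0514 and 0.0516) and without day 3 library 1 (0.0621). Without day 7 library 2 the log2 fold change at day 7 was 3.34 (adjusted p = 0.0342). The day 7 call was lost only where healthy library 4 and day 7 library 2 were left out together (log2 fold change 3.30, adjusted p = 0.0548).

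Loxl2, the member known for crosslinking collagen IV, was already well expressed in healthy LSECs. Its gene lies at chr14:69609068-69695834 on the plus strand. It was at 20.9, 18.1, 30.8 and 25.6 CPM in healthy libraries and at 36.7 and 39.4 at day 1. At day 3 it was at 42.7, 32.8, 63.3 and 99.8 CPM, and at day 7 at 61.0, 81.9, 49.3 and 49.9. The libraries of all 3 days were above every healthy library, as for 20.0% of all tested genes at day 1, 7.53% at day 3 and 8.72% at day 7. Its rise was 1.32 on the log2 scale at day 3 (SE 0.31, edgeR adjusted p = 0.0225) and 1.35 at day 7 (SE 0.31, adjusted p = 0.0368), both near 2.5-fold, and the day 1 difference was 0.68 (SE 0.37, adjusted p = 0.378). These were the least stable of the calls, kept in 11 of 24 other settings at day 3 and in 9 of 24 at day 7. The day 3 call was lost without healthy library 1, 2 or 4, either day 1 library, day 3 library 3 or 4, or day 7 library 1, 3 or 4 (adjusted p 0.0507 to 0.0761), and without day 3 library 4 the log2 fold change was 0.88. The day 7 call was lost without any healthy, day 1 or day 7 library and without day 3 library 3 (adjusted p 0.0562 to 0.127).

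Loxl3, a lysyl oxidase known for its part in skeletal and palate development, did not follow the other 3. Its gene lies at chr6:83034173-83052562 on the plus strand. The healthy libraries held 42.6, 35.5, 44.4 and 49.9 CPM, the day 3 libraries 45.0, 34.9, 40.1 and 52.1, and the day 7 libraries 36.3, 42.1, 33.1 and 38.9. The 3 groups overlapped. The log2 fold change was -0.004 at day 3 (95% interval -0.44 to 0.43) and -0.20 at day 7 (-0.63 to 0.23). At day 1 the libraries held 19.2 and 34.6 CPM, both below all healthy libraries, with a difference of -0.68 (SE 0.25, edgeR adjusted p = 0.164). No overlap in this direction at day 1 was seen for 17.9% of all tested genes. Of its merged exon bases 535 (11.6%) are shared with Htra2, a mitochondrial protease gene at 12.3 to 16.1 mean CPM in the 4 groups, and since the use of strand in counting was not given, reads in these bases may belong to either gene. How many reads they held was not measured.

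The lysyl oxidase transcripts were divided differently among the genes in healthy and injured LSECs. Of the summed CPM per kb of the 5 lysyl oxidase genes (with Loxl4), Loxl3 took 64.9% ± 2.72 in the 4 healthy mice (SD), then 39.8% ± 7.45 by day 3 and 33.5% ± 6.78 by day 7. The 4 healthy shares, 60.9% to 66.8%, were above all 10 shares after CCl4, which ran from 23.7% to 47.9%. Loxl2 took 30.3% ± 3.82 in the healthy mice, against 43.3% ± 7.36 on day 3 and 44.9% ± 8.25 on day 7. In day 1 libraries 1 and 2 the shares were already 34.5% and 47.9% for Loxl3 and 56.2% and 46.5% for Loxl2. Lox was then at 1.41% and 0.411%, and Loxl1 at 0.570% and 0.639%. Lox went from 0.428% ± 0.225 to 7.70% ± 1.63 and 7.62% ± 5.45, and Loxl1 from 1.44% ± 0.324 to 5.75% ± 1.51 and 11.8% ± 8.72. The shares describe the transcripts of the sorted sample, and no test was run on them.

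**Figure D3:**
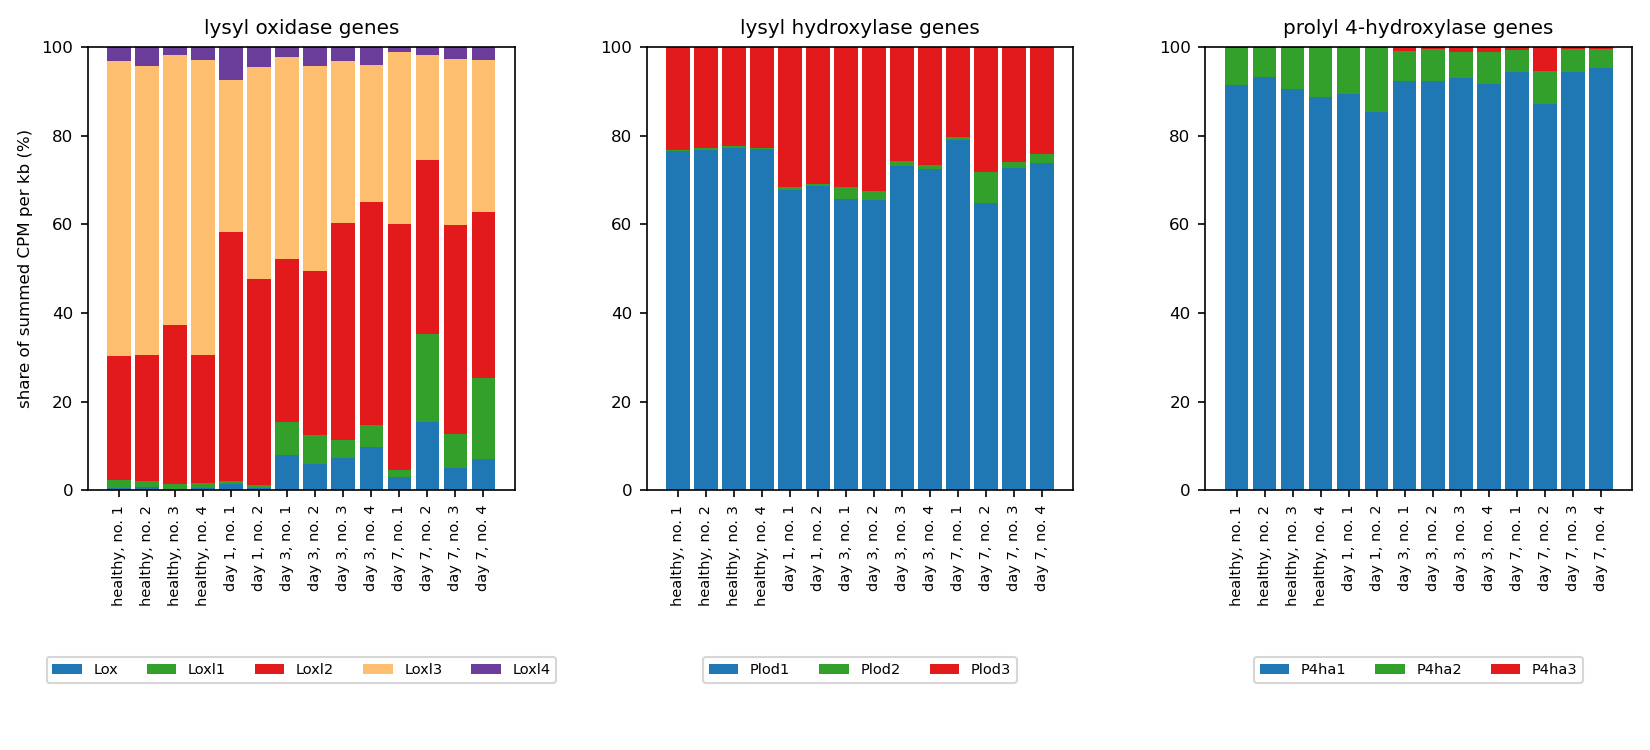
Share (%) of each gene in the summed CPM per kb of its family in each mouse: 5 lysyl oxidase genes on the left, 3 lysyl hydroxylase genes in the middle and 3 prolyl 4-hydroxylase genes on the right. Loxl3 takes 60.9% to 66.8% in healthy libraries and 23.7% to 47.9% after CCl4, while Plod1 and P4ha1 keep the largest share of their families in all 14 libraries.

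Among the lysyl hydroxylases, Plod2, which hydroxylates the lysines of the collagen telopeptides, rose and the others did not pass the edgeR test. The Plod2 gene lies at chr9:92542223-92608428 on the plus strand. It was at 0.589, 0.834, 1.13 and 0.996 CPM in healthy libraries and at 1.85 and 1.73 at day 1. At day 3 it was at 5.48, 3.74, 3.71 and 5.25 CPM and at day 7 at 2.12, 18.6, 3.42 and 6.0. All 10 libraries after CCl4 were above the healthy ones, as for 20.0% of all tested genes at day 1, 7.53% at day 3 and 8.72% at day 7. Those of day 3 were also above day 1, as for 11.4% of all genes. Plod2 rose by 2.35 on the log2 scale at day 3 (SE 0.56, edgeR adjusted p = 0.0225) and by 3.08 at day 7 (SE 0.57, adjusted p = 0.0139), and the day 1 difference was 1.01 (SE 0.63, adjusted p = 0.458). The day 3 call was lost without healthy library 1, 2 or 4 (adjusted p 0.0732, 0.0666 and 0.0591) or day 3 library 1 (0.0568), and the day 7 call without healthy library 1 or 2 (0.0607 and 0.0515). Without day 7 library 2 the log2 fold change at day 7 was 2.11 (adjusted p = 0.0252). Plod2 shares 6.42% of its exon bases with Gm38391, whose mean CPM was 0.269 in healthy LSECs and 1.98 at day 7.

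Plod1 and Plod3 held most of the lysyl hydroxylase transcripts throughout. Plod1 (chr4:147909753-147936767, minus strand), which hydroxylates lysines within the helix, was at 244, 286, 314 and 315 CPM in healthy libraries, 231 and 304 at day 1, 177, 165, 307 and 429 at day 3, and 263, 218, 225 and 286 at day 7. Its log2 fold change was -0.10 at day 3 (95% interval -0.68 to 0.47) and -0.22 at day 7 (-0.80 to 0.35). At day 3 libraries 1 and 2 were below and library 4 was above the healthy range. Limma voom with sample quality weights called Plod1 lower at day 3 (log2 fold change -0.66, adjusted p = 0.0167), which neither edgeR nor DESeq2 did. Voom called 7265 of all 26626 genes at day 3. Plod3 (chr5:136987019-136996648, plus strand), which also adds sugars to hydroxylysine, held 49.8, 56.9, 60.7 and 62.3 CPM in healthy libraries, 71.9 and 91.1 at day 1, 57.0, 54.7, 72.4 and 105.1 at day 3, and 45.1, 63.3, 53.6 and 62.7 at day 7. Both day 1 libraries were above all healthy libraries, as for 20.0% of all tested genes, and the difference was 0.51 (SE 0.25, edgeR adjusted p = 0.327). Plod3 shares 11.9% of its exon bases, mainly with Znhit1, which was at 21.6 to 28.3 mean CPM in the 4 groups. Plod2 made up 0.292% ± 0.0495 of the family's CPM per kb in healthy LSECs and 2.77% ± 2.83 at day 7, so even after its rise it was a small part of these transcripts.

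The catalytic subunits of prolyl 4-hydroxylase passed the edgeR test on no day. P4ha1 (chr10:59323296-59373304, plus strand) was at 98.8, 145, 133 and 151 CPM in healthy libraries, 115 and 125 at day 1, 97.1, 114, 125 and 128 at day 3, and 88.6, 82.7, 79.1 and 209.6 at day 7. Day 7 library 4 was above all other libraries and the 3 others of that day were below all healthy ones. The log2 fold change was -0.13 at day 1 (95% interval -0.88 to 0.61), -0.19 at day 3 (-0.80 to 0.42) and -0.20 at day 7 (-0.81 to 0.41). P4ha2 (chr11:54100095-54131665, plus strand) was at 13.7, 15.6, 20.6 and 28.6 CPM in healthy libraries, 20.5 and 32.6 at day 1, 10.7, 13.4, 11.9 and 15.2 at day 3, and 7.29, 10.6, 6.64 and 14.5 at day 7. At day 7, library 4 lay in the lower part of the healthy range and libraries 1, 2 and 3 were below all healthy ones. The 95% interval of the log2 fold change at day 7 was -1.65 to -0.37. The day 7 difference was -1.01 (SE 0.30), with an edgeR adjusted p of 0.0804, while DESeq2 (-0.98, adjusted p = 0.0248) and limma voom (-0.80, adjusted p = 0.0426) called it lower. Of all 26626 genes, DESeq2 called 2713 and voom 7047 at day 7. P4ha2 had the largest fall of the 10 genes against healthy LSECs at days 3 and 7 in the edgeR fit.

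Both prolyl 4-hydroxylase genes are known targets of the hypoxia-inducible factors, and the sequences before their RefSeq start sites are shown for this reason. At day 1, 6 of 16 other hypoxia-response genes rose. The other 10 did not pass the test, and neither did P4ha1 and P4ha2. The 250 bases before each start site (RefSeq, GRCm38.p6) are given 5′ to 3′ on the gene's strand, with each ACGTG or GCGTG, the core of the hypoxia-response element and its variant, in capitals on either strand (CACGT and CACGC on the other).
P4ha1: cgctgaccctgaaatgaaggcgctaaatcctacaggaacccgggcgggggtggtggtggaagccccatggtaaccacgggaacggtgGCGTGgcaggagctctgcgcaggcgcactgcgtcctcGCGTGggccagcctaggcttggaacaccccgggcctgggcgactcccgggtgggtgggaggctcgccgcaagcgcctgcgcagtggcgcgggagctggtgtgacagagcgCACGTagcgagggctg
P4ha2: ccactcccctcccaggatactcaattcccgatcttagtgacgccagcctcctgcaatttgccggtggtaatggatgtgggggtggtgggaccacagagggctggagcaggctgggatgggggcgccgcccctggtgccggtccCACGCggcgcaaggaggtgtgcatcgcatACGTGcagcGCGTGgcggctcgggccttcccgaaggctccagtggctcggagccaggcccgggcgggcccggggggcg
The windows are chr10:59323046-59323295 and chr11:54100674-54100923, both on the plus strand, and each holds 3 matches. The P4ha2 window lies within the GENCODE span of the gene given above, which begins further upstream than the RefSeq start site. Windows were found for 5 of the 10 genes, and those of Plod3, Plod1 and Serpinh1 hold 4, 1 and 1 matches. Of all 32851 windows of this length, 38.6% hold at least 1 match and 6.58% hold 3 or more. A match describes letters and not a bound site. Of 16 hypoxia-response genes outside the 10, 6 rose and 0 fell at day 1, with a median log2 fold change of 0.89 beside -0.03 over all tested genes. Slc2a1, the glucose transporter GLUT1, rose by 2.71 on the log2 scale (SE 0.31, edgeR adjusted p = 3.8e-04), Pgk1, a glycolytic kinase, by 1.45 (adjusted p = 8.4e-04) and Egln3, an oxygen-sensing prolyl hydroxylase, by 2.43 (adjusted p = 0.0160); Eno1, Pdk1 and Aldoa were the others. At day 3, 4 of the 16 rose (Hk2, Pgk1, Eno1 and Slc2a1) and at day 7 only Hk2. Of all tested genes 4.06% changed at day 1, 4.62% rose at day 3 and 2.19% rose at day 7. At day 1 P4ha2 differed from healthy LSECs by 0.44 (SE 0.36, edgeR adjusted p = 0.601, 95% interval -0.33 to 1.20) and Plod2, a further known target, by 1.01. Which other members are targets of these factors was not examined. The day 1 differences of the lysyl oxidases were 0.98 for Lox, -1.27 for Loxl1, 0.68 for Loxl2 and -0.68 for Loxl3, and 0 of them passed the edgeR test.

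Serpinh1, the collagen chaperone, varied widely within groups. Its gene lies at chr7:99345376-99353239 on the minus strand. The healthy libraries held 11.5, 33.6, 42.2 and 52.1 CPM and the day 1 libraries 51.6 and 26.5. The day 3 libraries held 30.6, 31.1, 41.6 and 106 CPM and the day 7 libraries 16.1, 90.3, 43.3 and 101.2. Day 3 library 4 and day 7 libraries 2 and 4 were above every healthy library, and the others lay within the healthy range. The log2 fold change was 0.59 at day 3 (SE 0.58, edgeR adjusted p = 0.613) and 0.85 at day 7 (SE 0.59, adjusted p = 0.431), with a 95% interval at day 7 of -0.42 to 2.11.

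The 4 genes that rose were also compared with the stellate cell markers, library by library. Among the day 7 libraries, library 2 had the most stellate marker CPM (676) and the highest Lox (28.4), Loxl1 (25.2), Loxl2 (81.9) and Plod2 (18.6 CPM). Library 2 also had the highest hepatocyte (7433 CPM), cholangiocyte (5255 CPM) and portal fibroblast and mesothelial (94.2 CPM) marker sums of that day. Its macrophage marker sum was the highest of the day as well (10590 CPM, against 10582 in library 3). Its LSEC and endothelial marker sum, 11159 CPM, was the lowest of all 14 libraries. The portal fibroblast and mesothelial sum was 62.9 CPM in library 4, 28.6 in library 3 and 10.0 in library 1. Day 7 library 1 had 57.1 CPM of stellate markers, within the healthy range of 36.3 to 62.9, but 5 of the 12 markers (Lrat, Des, Pdgfrb, Pdgfra and Cygb) were above all healthy libraries in it, with Lrat at 10.1 CPM and Pdgfrb at 3.14. In that library Lox was at 2.98, Loxl1 at 1.03, Loxl2 at 61.0 and Plod2 at 2.12 CPM, each above all 4 healthy libraries. In day 3 the order differed, with library 4 highest for Lox (17.1), Loxl1 (6.04) and Loxl2 (99.8) at 287 CPM of stellate markers, and library 1 highest for the markers (413 CPM) and for Plod2 (5.48, against 5.25 in library 4). At day 1, with stellate markers at 37.9 and 54.2 CPM, Loxl2 and Plod2 were above the healthy libraries (as for 20.0% of all tested genes) and Loxl1 was below them (17.9%), and none of the 3 passed the edgeR test (adjusted p = 0.378, 0.458 and 0.501). Over the 14 libraries, which share groups and sort, the log2 CPM of Lox followed that of Plod2 (Pearson r 0.91), Loxl1 (0.87) and Loxl2 (0.81), as a description. The part of RNA from stellate or other cells in the rise of the 4 genes was not tested.

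**Figure D4:**
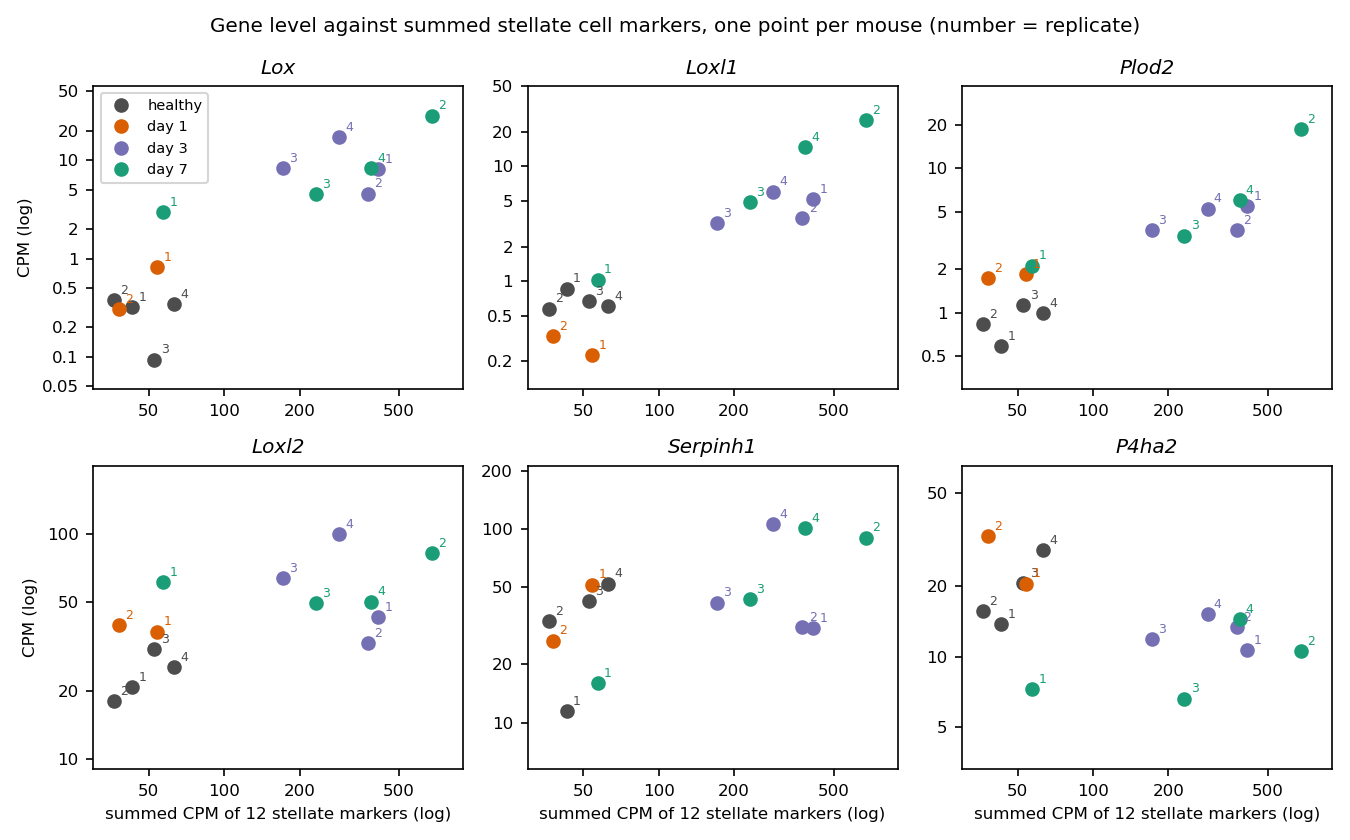
CPM of 6 genes (log axis) against the summed CPM of 12 stellate cell and myofibroblast markers (log axis), with 1 point per mouse and its replicate number, coloured by group. Day 7 mouse 1 sits at 57.1 CPM of markers, within the healthy range of the sum, with 5 of the 12 markers and Lox, Loxl1, Plod2 and Loxl2 above all healthy mice, and P4ha2 is lowest in day 7 mice 1 and 3.

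Day 3 was compared with day 1 and day 7 with day 3, while day 7 was not tested against day 1. From day 1 to day 3, 0 of the 10 genes passed in edgeR, where 2.54% of all tested genes did, and 4 had an unadjusted p under 0.05 (15.8% of all genes). Lox differed by 4.09 on the log2 scale (SE 1.02, adjusted p = 0.0511) and Loxl1 by 4.00 (SE 0.99, adjusted p = 0.0501), with all day 3 libraries above both day 1 libraries, as for 11.4% of all genes. DESeq2 called both (adjusted p 3.6e-05 and 3.8e-05), among 2408 calls over all 26626 genes. P4ha2 differed by -1.05 (SE 0.35, adjusted p = 0.149) and Loxl3 by 0.68 (SE 0.25, adjusted p = 0.203), again with no overlap between the days, which for genes lower at day 3 held for 10.4% of all genes. From day 3 to day 7, 0 of the 10 passed in edgeR, where 1.77% of all genes did, 0 had an unadjusted p under 0.05 (18.8% of all genes), and DESeq2 and limma voom called 0. The intervals were widest for Lox, with a difference of 0.21 and a 95% interval of -1.20 to 1.63, and for Loxl1, with 1.35 and -0.05 to 2.75, so these data do not show that the days were alike.

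The other genes of collagen modification and secretion changed in part on other days. Of 22 such genes 21 passed the filter on low counts. At day 1, 2 of them rose and 0 fell. Fkbp14, a prolyl isomerase of the endoplasmic reticulum that binds collagen, rose from 19.7 ± 2.81 to 94.0 ± 18.4 CPM (log2 fold change 2.25, SE 0.25, edgeR adjusted p = 3.2e-04), and Tgm2, a transglutaminase that crosslinks matrix proteins, from 299 ± 26.6 to 1230.1 ± 82.8 CPM (2.04, SE 0.27, adjusted p = 9.3e-04). Both were lower again at day 3 than at day 1, by -2.48 for Fkbp14 (adjusted p = 8.1e-04) and by -1.29 for Tgm2 (adjusted p = 0.0255). At day 3, 4 rose: Fkbp10, an isomerase needed for telopeptide lysyl hydroxylation (3.81, adjusted p = 0.00644), Pcolce, an enhancer of procollagen C-propeptide cleavage (1.2, adjusted p = 0.00699), Adamts2, a procollagen N-propeptidase (3.54, adjusted p = 0.0121), and P3h4, a partner of lysyl hydroxylase (2.13, adjusted p = 0.0465). At day 7, Fkbp10 (4.01, adjusted p = 0.00981) and Adamts2 (4.23, adjusted p = 0.0116) rose. The median log2 fold change of the 21 genes was -0.22 at day 1, 0.76 at day 3 and 0.35 at day 7, beside -0.03, 0.18 and 0.02 over all tested genes. Of all tested genes 4.06% changed at day 1, 4.62% rose at day 3 and 2.19% rose at day 7.

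Among the substrates, genes rose on each of the 3 days. Of 13 collagen and elastin genes, 2 rose at day 1, the basement membrane collagens Col4a2 (1.74, edgeR adjusted p = 0.0102) and Col4a1 (1.57, adjusted p = 0.0325), where 4.06% of all tested genes changed. That day 8 of the 13 lay below every healthy library (17.9% of all genes) and 2 above (20.0%). At day 3, 9 rose, led by Col6a3 (4.84, adjusted p = 0.00382), Col5a1 (4.00, adjusted p = 0.00485), Col1a2 (4.88, adjusted p = 0.00764), Col3a1 (4.55, adjusted p = 0.00817), Col1a1 (5.90, adjusted p = 0.00971) and Col4a2 (1.42, adjusted p = 0.0120). At day 7, 9 rose, led by Col5a1 (5.21, adjusted p = 0.00481), Col6a3 (5.48, adjusted p = 0.00514), Col1a2 (6.14, adjusted p = 0.0075), Col3a1 (5.70, adjusted p = 0.00779), Col1a1 (7.34, adjusted p = 0.00961) and Col6a2 (4.72, adjusted p = 0.00961). Col1a1 was at 1.82 to 4.41 CPM in healthy libraries, 45.7 to 443 in the day 3 mice and 21.3 to 1214 in the day 7 mice, a wider spread within a day than that of Lox. The median log2 fold change of the 13 genes was -1.05 at day 1, 2.79 at day 3 and 4.72 at day 7, beside -0.03, 0.18 and 0.02 over all tested genes. Of all tested genes 4.62% rose at day 3 and 2.19% at day 7.

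**Figure D5:**
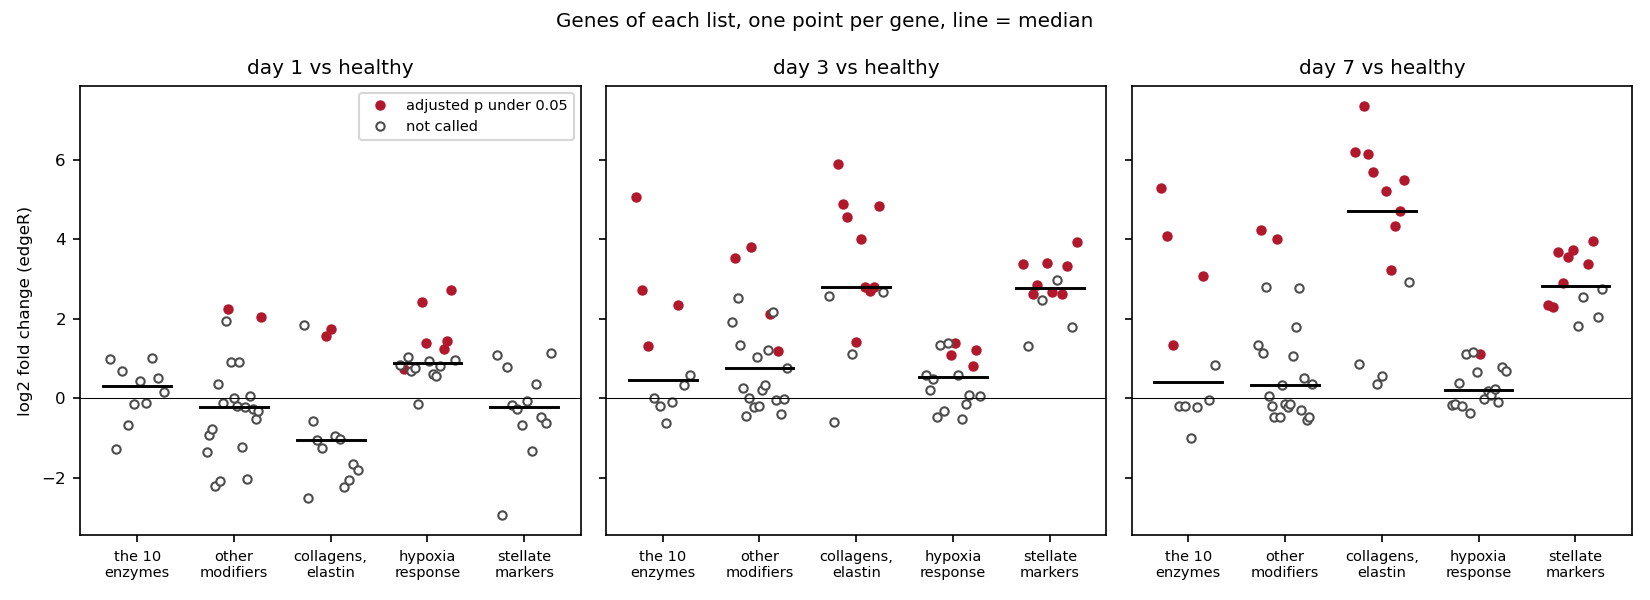
Log2 fold change against healthy LSECs (edgeR) for each gene of 5 lists at days 1, 3 and 7, with 1 point per gene, filled where the adjusted p was under 0.05, and a line at the list's median. The median of the 10 enzymes stays between 0.30 and 0.46 on all 3 days, while that of the collagens and elastin goes from -1.05 to 4.72.

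By pattern over the 14 libraries, the genes most like each member were named among 15615 genes of at least 1 mean CPM, by the Pearson correlation of log2 CPM, given as a description. For Lox these were Pde1a (0.978), Mrc2 (0.973) and Pdzrn3 (0.970), and for Loxl1 they were Antxr1 (0.984), Mylk (0.983) and Bicc1 (0.982). Loxl2 was most like Fkbp10 (0.917), Gm48837 (0.900) and Gm7497 (0.894), and Plod2 most like Alcam (0.967), Kdelr3 (0.953) and Fkbp10 (0.953), so Fkbp10 was near both. For P4ha1 they were the chaperone genes Stip1 (0.900) and Hspb1 (0.895) and the predicted gene Gm7232 (0.871). For Plod1 they were Gid4 (0.961), Copa (0.957) and Zdhhc7 (0.955), and for Plod3 they were Fkbp5 (0.922), Nes (0.916) and Slc12a4 (0.911). Loxl3 was most like Stxbp4 (0.899), Chid1 (0.878) and Spice1 (0.869), and Serpinh1 most like Adcy3 (0.911), Abcc3 (0.875) and Mboat7 (0.869). P4ha2 had the lowest values, with Celf4 (0.856), Bpnt1 (0.853) and Rdh11 (0.847).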

How the data were processed

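RNA of LSECs from 14 mice in 4 groups, taken from the sample labels, was sequenced. The authors mapped reads with STAR to GRCm38, used StringTie, and deposited a table of raw counts, whole numbers of reads for each Ensembl gene. The annotation release and the use of strand are not given in the sources used here. Counts per library (46401496 to 103912264) limit precision by counting error only. Low genes were removed by filterByExpr within groups, at a count of 10 and a total of 15, and TMM scaling and edgeR's quasi-likelihood test (version 4.0.16 under R 4.3.3) followed in 1 model of 4 group means, with Benjamini-Hochberg adjustment over 26626 genes and a threshold of 0.05. Standard errors are the absolute log2 fold change over the square root of F, and 95% intervals use the t quantile at the test's degrees of freedom. Positions and lengths are from GENCODE vM21. The 10 genes and all lists were chosen with earlier results of these data known. All 10 are named, from the other lists those called against healthy LSECs (lowest adjusted p first, up to 6), and the 3 genes most like each member; Fkbp14 and Tgm2 between days 1 and 3, and genes sharing exons, were added. Alternatives were DESeq2 1.42.0, limma 3.58.1 voom, other scalings and filters, 2-group models, a replicate block, and leaving out libraries. Fits were tested on simulated data.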

Additional observations from a re-analysis of the deposited data

Results flagged for a closer look

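P4ha1 was at 209.6 CPM in day 7 library 4, while the other 3 day 7 libraries lay between 79.1 and 88.6 CPM. The gap to the nearest library was 0.927 of the group's range, above Dixon's 95% critical value for 4 samples. Serpinh1 was at 105.9 CPM in day 3 library 4, with the other 3 day 3 libraries between 30.6 and 41.6 CPM and a gap of 0.854 of the range. Of the 10 genes in 3 groups of 4 mice, 30 sets were examined, and chance alone marks about 5% of them.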

How the results depend on the processing

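The number of the 10 genes called changed with the libraries and tools used. At day 3 it was 4, 2 without day 3 libraries 1 and 2 and 2 without healthy library 4 and day 7 library 2 together, and 1 to 4 with each library left out. Voom called 5 at day 3, and no filter, only the 2 groups and 10 counts in every sample gave 3. At day 7 it was 4, 2 without healthy library 4 and day 7 library 2 together, and 2 to 4 with each library left out. DESeq2 and voom called 5 at day 7, both adding P4ha2, and library size only and no filter gave 3 without Loxl2 (adjusted p 0.0518 and 0.0672), as did 10 counts in every sample, where Lox was not tested. Those 2 joint omissions were chosen after seeing the data. At day 1 voom called 2 against 0. From day 1 to day 3, where edgeR called 0, DESeq2 called 2 and voom, RLE scaling, library size only, 10 counts in every sample and only the 2 groups each 1, the joint omissions 1 and 2, and each library left out 0 to 2. From day 3 to day 7 the number was 0 in all settings. Same-numbered mice are different animals, and their deviations correlated at -0.232 to 0.0962 over 18 pairs, so no pairing was used. With the sample number as a replicate block all the same, 3 genes were called at day 3, 4 at day 7 and 0 in the other comparisons; Loxl1 at day 3 (adjusted p = 0.0591) and Loxl2 at day 7 (0.0585) were lost and P4ha2 at day 7 was gained (-1.02, 0.0457). Lox could not be tested with 10 counts in every sample, since healthy library 3 held 9. The causes were not tested.

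Over all genes the number called ran from 946 to 7265 at day 3 (1915 as reported), 193 to 7047 at day 7 (846), 164 to 4308 at day 1 (1080), 49 to 3344 from day 1 to day 3 (676) and 1 to 6002 from day 3 to day 7 (472). Voom gave the highest of these numbers in each comparison. DESeq2 called 3790 genes at day 3, 2713 at day 7 and 2837 at day 1. With library size only, 75.1% of the genes called at day 3 and 86.8% at day 7 were higher, against 64.2% and 68.8% with TMM, and no scaling changed the direction of a called gene among the 10.

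Of 1195 log2 fold changes of the 10 genes in other settings, 75 changed sign, and none of these was called in the reported fit. For day 1 against healthy, Plod1 gave 0.11 (the replicate block) and -0.35 to 0.0317 with each library left out, P4ha1 gave 0.0661 (the replicate block), Serpinh1 gave -0.45 to 0.52 with each library left out. For day 3 against healthy, Loxl3 gave 0.0432 (library size only), 0.0677 (without day 3 libraries 1 and 2) and -0.20 to 0.11 with each library left out, Plod1 gave 0.32 (without day 3 libraries 1 and 2) and -0.50 to 0.0932 with each library left out, Serpinh1 gave -0.11 to 0.79 with each library left out. For day 7 against healthy, Plod3 gave 0.00356 (DESeq2), 0.0176 (voom), 0.00354 (RLE scaling), 0.0375 (library size only), 0.0575 (10 counts in every sample) and -0.0943 to 0.0508 with each library left out, P4ha1 gave 0.0141 (without healthy 4 and day 7 library 2). For day 3 against day 1, Plod1 gave -0.53 (voom), -0.11 (no filter), -0.0128 (only the 2 groups), -0.30 (the replicate block), -0.0425 (without healthy 4 and day 7 library 2) and -0.36 to 0.22 with each library left out, Plod3 gave 0.12 (without day 3 libraries 1 and 2), P4ha1 gave 0.0453 (library size only) and 0.0701 (without day 3 libraries 1 and 2), Serpinh1 gave -0.16 (voom), -0.41 (the replicate block) and -0.24 to 0.94 with each library left out. For day 7 against day 3, Lox gave -0.051 (the replicate block), -0.15 (without day 3 libraries 1 and 2), -0.76 (without healthy 4 and day 7 library 2) and -0.85 to 0.75 with each library left out, Loxl2 gave -0.38 (without day 3 libraries 1 and 2), -0.0605 (without healthy 4 and day 7 library 2) and -0.16 to 0.47 with each library left out, Loxl3 gave -0.26 to 0.00331 with each library left out, Plod1 gave 0.43 (voom), 0.0343 (without healthy 4 and day 7 library 2) and -0.27 to 0.27 with each library left out, Plod2 gave -0.12 (without healthy 4 and day 7 library 2) and -0.24 to 1.17 with each library left out, P4ha1 gave 0.0253 (DESeq2), 0.11 (voom), 0.0253 (RLE scaling), 0.0188 (library size only), 0.0352 (no filter), 0.10 (10 counts in every sample), 0.24 (without healthy 4 and day 7 library 2) and -0.34 to 0.25 with each library left out, Serpinh1 gave -0.19 (without day 3 libraries 1 and 2).

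Day 1 with 2 mice, and Lox at 9 to 32 reads in healthy libraries, limit the precision, and a p that missed the threshold does not show equal levels.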
